A study of Mus musculus with 48 samples.

Results

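Primary cilium genes of the hippocampus were taken from the deposited read counts as the protein-coding rows whose symbol is Ift, Bbs, Tctn, Nphp or B9d followed by a digit, together with Ttc8, Arl6, Arl13b, Mks1, Cc2d2a and Rpgrip1l. The rule found 35 of the 48440 genes in the table, on 16 chromosomes. A primary cilium is a single, non-motile antenna that most neurons and astrocytes carry. Intraflagellar transport (IFT) trains run along its axoneme, with the IFT-B complex and kinesin motors leading outwards and the IFT-A complex and a dynein motor leading back. The BBSome, a coat-like complex, rides on these trains and moves membrane receptors such as those for somatostatin and melanin-concentrating hormone, and the MKS and NPHP modules of the transition zone gate the entry at the base. Motile cilia, which the ependyma carries in tufts, need the same transport and in addition axonemal dyneins, radial spokes and a central pair.

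The 48 libraries are of the hippocampus (both hemispheres blended) of female C57BL/6 offspring aged 3 months, from wildtype C57BL6/J dams mated with C57BL6/J males heterozygous for the serotonin transporter gene Slc6a4 (5-Htt). Control dams were undisturbed, and the others were restrained repeatedly each day from embryonic day 13 to 17. Stressed offspring were divided by the study into socially affected (SA, labelled susceptible) and socially unaffected (SU, labelled resilient) animals by a sociability test. The groups were control 5-Htt+/+ (n = 8), SA 5-Htt+/+ (n = 8), SU 5-Htt+/+ (n = 8), control 5-Htt+/- (n = 7), SA 5-Htt+/- (n = 8) and SU 5-Htt+/- (n = 9). The 5-Htt deletion is constitutive, and litter is not in the labels, so p-values may be too small where libraries share one. Since hippocampus is a mixture, fewer ciliated cells and less RNA per cell cannot be told apart.

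Some properties of the libraries bear on every value below. Total counts ranged from 16488405 to 38213754. Slc6a4 was at 12.8 to 17.0 CPM (counts scaled to a common library total) in the libraries labelled 5-Htt+/-. In those labelled 5-Htt+/+ it was at 0 to 0.261 CPM. It was thus higher under the label that carries the deletion, the reason was not tested, and each genotype is given as labelled. In 20 libraries, 1 to 6 of each group, the summed level of 16 choroid plexus markers was 302 to 1009 CPM, whereas in the other 28 it was 32.8 to 74.6 CPM. Libraries also differed in how their counts depended on the GC content of the transcript. This GC tilt, computed without the 35 genes, is the slope of a library's log2 CPM, relative to the mean of each gene, per 10 points of GC content. It ranged from -0.198 to 0.308, and of the 6 libraries farthest from its median 3 are among the 7 labelled control 5-Htt+/-.

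All 35 genes passed the filter of at least 5 reads in at least 3 libraries, and each had reads in every library, with the lowest mean count at 80.4 (Bbs10). Ift88, an IFT-B core subunit whose loss abolishes cilia, lies on chromosome 14 at 57424062 to 57517936 (GRCm38) and was at 4.81 ± 0.453 CPM per kilobase of exon (RPKM, SD, n = 48). Bbs1, a BBSome subunit on chromosome 19 at 4886898 to 4906627, was at 5.64 ± 0.318 RPKM. Both markers of the class were thus measured in all libraries. Levels per length of the 35 genes had a median of 5.05 RPKM, and the highest mean was 22.7 times the lowest.

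**Figure D1:**
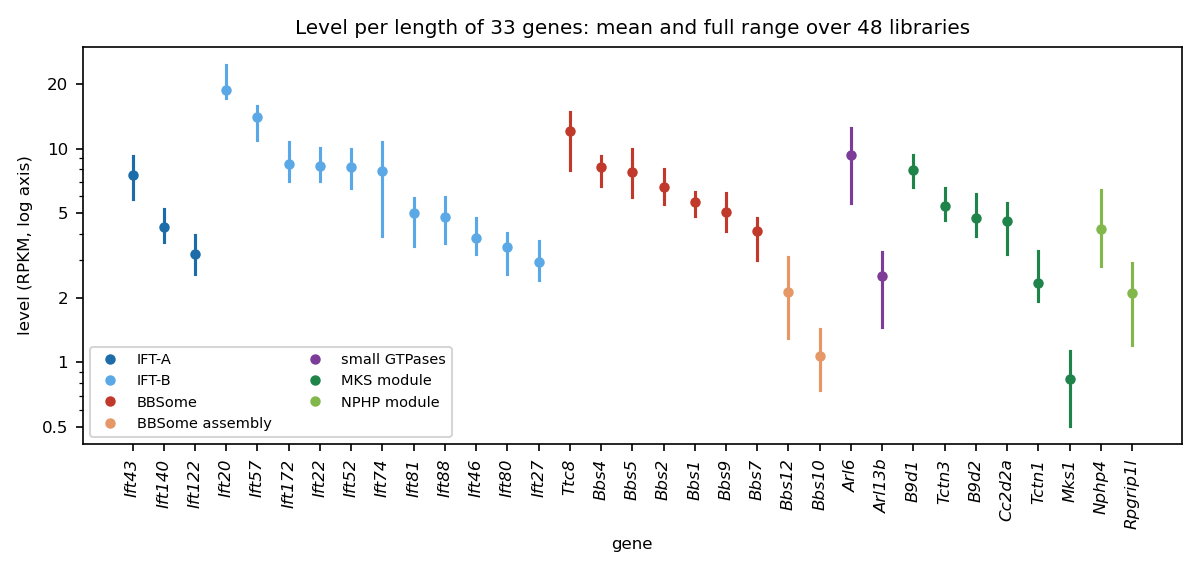
Mean level per length (RPKM, log axis) of 33 of the 35 genes over all 48 libraries (points), with lines from the lowest to the highest library and colours by complex. Ift20 is the highest at 18.9 RPKM and Mks1 the lowest at 0.833 RPKM, and the long lines of Ift74, Arl13b and Rpgrip1l show a wider spread than that of Bbs1.

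Subunits of 1 complex were not at 1 level. Among 11 IFT-B genes, Ift20, which also works at the Golgi, was at 18.9 ± 1.26 RPKM, the highest of all, and Ift57 was at 14.0 ± 1.08 RPKM, whereas Ift27, a small GTPase-like subunit, was at 2.95 ± 0.288 RPKM (SD over 48 libraries in each case). The lowest library of Ift20 (17.2 RPKM) was above the highest library of Ift57 (15.8 RPKM). At the exon lengths used these neighbours in the order thus did not overlap. The 3 IFT-A genes were at 7.51 (Ift43), 4.29 (Ift140) and 3.22 RPKM (Ift122). The 7 BBSome subunits ranged from 4.11 RPKM (Bbs7) to 12.1 RPKM (Ttc8). The chaperonin-like factors that help to assemble the BBSome were lower, with Bbs12 at 2.13 ± 0.398 RPKM and Bbs10 at 1.07 ± 0.135 RPKM.

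Of the small GTPases, Arl6, which recruits the BBSome to membranes, was at 9.35 ± 1.11 RPKM and Arl13b, a regulator of ciliary membrane composition, at 2.53 ± 0.393 RPKM. In the MKS module B9d1 was the highest of 6 genes (7.91 ± 0.637 RPKM) and Mks1 was the lowest of all 35 (0.833 ± 0.135 RPKM), although both encode B9 domain proteins of 1 complex. In the NPHP module Nphp4 was at 4.19 ± 0.590 RPKM and Rpgrip1l, a scaffold of the transition zone, at 2.11 ± 0.320 RPKM. The libraries of Rpgrip1l (1.21 to 2.92 RPKM) and of Bbs12 (1.30 to 3.10 RPKM) overlapped, so the order of these neighbours is not set beyond their spread. Exon length, the union of all annotated exons of a gene, was taken from a later annotation of the same genome. It is fixed for each gene, so the spread over libraries does not cover the choice of length. Before division by it Rpgrip1l was at 31.0 CPM (14688 bases) and Ift20 at 28.9 CPM (1525 bases). Of the 35 genes, 7 share exon bases with another annotated gene. The longest such stretch is 1574 of the 8295 exon bases of Tctn1, which lie under Hvcn1 on the other strand, and whether reads were counted by strand is not stated in the sources used here.

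Some cilium genes share a promoter motif, the X-box, which RFX factors bind and which is made of half-sites a few bases apart. RefSeq promoters (GRCm38.p6, 250 bases before to 50 after a start) were matched by symbol for 30 of the 35 genes, with 34 promoters. A strict form, GTTNCC and GGNAAC with 0 to 3 bases between (the same on both strands), was found in 5 of these 34 promoters (14.7%), in 3 of 54 promoters of motile cilium genes (5.56%) and in 0.804% of all 32851 promoters. A relaxed form, GTNNCC and GGNNAC at the same spacing, which every strict site also meets, was found in 9 of the 34 promoters (26.5%), in 24.1% of those of motile cilium genes and in 3.86% of all. These are matches of letters and not measured binding. The strict form was held by Bbs7, Ift57, Mks1, Tctn1 and Tctn3. The sites of 4 of them end before the RefSeq start. These follow with 15 bases on each side, 5′ to 3′ on the strand of the gene and with the motif in capitals. They are given as the shared sequence of subunits whose levels differ widely.
Bbs7, BBSome, chr3:36613482-36613525, minus strand: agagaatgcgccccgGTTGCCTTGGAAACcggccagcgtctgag
Ift57, IFT-B, chr16:49699219-49699261, plus strand: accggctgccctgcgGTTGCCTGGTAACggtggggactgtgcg
Mks1, MKS module, chr11:87853176-87853219, plus strand: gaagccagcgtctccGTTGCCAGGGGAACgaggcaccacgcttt
Tctn3, MKS module, chr19:40612344-40612386, minus strand: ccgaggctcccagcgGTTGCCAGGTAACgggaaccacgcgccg
In all 4 the first half-site is GTTGCC, and the gap is 1 base in Ift57 and Tctn3 and 2 bases in Bbs7 and Mks1. The site begins 60 bases before the RefSeq start in Ift57 and 24 bases before it in Mks1, genes whose mean levels were 14.0 and 0.833 RPKM. In the annotation of the read counts Ift57 begins at 49699233, within the stretch printed above, so its distance depends on the annotation.

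Prenatal stress was first examined in the 5-Htt+/+ libraries. In SA against control, none of the 35 genes passed an adjusted p of 0.05 in edgeR's quasi-likelihood test, by its likelihood ratio test or in DESeq2, beside 4 of 31208 genes tested (0.0128%), and 0 of 35 had an unadjusted p under 0.05 (3.07% of all genes), with 1 in DESeq2. Shares of all genes and counts at an unadjusted p are those of the quasi-likelihood test unless another is named. Differences ran from -0.10 (Ift46) to 0.07 (Mks1) on the log2 scale, with a median of 0.01 beside -0.00174 for all genes. In SU against control, 0 of 35 were called by any of the 3 tests (0.0192% of all genes by the quasi-likelihood test) and 0 had an unadjusted p under 0.05 (3.37%), with differences from -0.20 (Mks1) to 0.15 (Rpgrip1l). Ift88 was at 22.1 ± 3.04 CPM in control, 22.6 ± 2.35 CPM in SA and 22.7 ± 1.16 CPM in SU animals (SD, n = 8 each). Bbs1 was at 42.5 ± 2.99, 43.6 ± 2.45 and 43.0 ± 2.25 CPM in the same order. For both genes the groups overlapped over most of their range, and the log2 differences were 0.02 to 0.04 with standard errors of 0.04 to 0.07.

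In the 5-Htt+/- libraries 0 of 35 genes were called in SA against control and 0 in SU against control, by each of the 3 tests. The share of all genes called in SA was 0.0288%, and it was 0.0641% in DESeq2 and 0.0673% with likelihood ratios. In SU it was 0.0160%, beside 0.551% in DESeq2 and 0.282% with likelihood ratios. With an unadjusted p under 0.05 there were 6 of 35 genes in SA (12.1% of all genes) and 6 of 35 in SU (15.5% of all genes), so the shares of the ciliary genes, 6 of 35 each, were near those of all genes. Without the 20 libraries of high choroid plexus markers these counts were 0 in SA and 2 in SU, and in a fit of the 2 groups alone 2 and 5. The first of these fits leaves out 1 of 7 control, 3 of 8 SA and 6 of 9 SU libraries and so has fewer animals. Shares of all genes at this p were not counted in either fit. Of the 6 in SA, 3 were positive (Ift74, Bbs4, Arl6) and 3 negative (Tctn1, Ift22, Ift140). In SU, 2 were positive (Bbs4, Arl6) and 4 negative (Nphp4, Tctn1, Mks1, Ift140). Both comparisons use the same 7 control libraries, so their values are given side by side and not as support for each other.

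Arl6 in 5-Htt+/- libraries had a lowest, median and highest level of 11.6, 16.8 and 22.1 CPM in control, 16.4, 20.1 and 26.3 CPM in SA and 18.5, 19.4 and 23.0 CPM in SU. The groups overlap, and the lowest control library is below every stressed library. Its log2 difference from control was 0.24 ± 0.08 (SE) in SA (adjusted p = 0.312) and 0.24 ± 0.08 in SU (adjusted p = 0.185). Without control 5-Htt+/- replicate 4 the SU difference was 0.30 (adjusted p = 0.0473), the only call made in this comparison when each library was left out in turn. Tctn1, a tectonic protein of the transition zone, was at 18.9, 22.1 and 27.5 CPM in control, 16.0, 20.1 and 22.1 CPM in SA and 17.0, 18.7 and 21.5 CPM in SU, with log2 differences of -0.16 ± 0.07 (adjusted p = 0.364) and -0.22 ± 0.07 (adjusted p = 0.147). The median control library equals the highest SA library at this precision and lies above the highest SU library.

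Ift140, the scaffold of IFT-A, was at 35.6, 37.8 and 43.4 CPM in control, 33.0, 35.7 and 36.9 CPM in SA and 30.6, 34.9 and 37.7 CPM in SU. Its log2 differences were -0.12 ± 0.05 (adjusted p = 0.361) and -0.15 ± 0.05 (adjusted p = 0.162), and the control median lies above all SA and SU libraries. Bbs4, a BBSome subunit with tetratricopeptide repeats, was at 40.2, 46.1 and 51.3 CPM in control, 45.4, 49.3 and 55.9 CPM in SA and 46.8, 48.7 and 55.0 CPM in SU, with log2 differences of 0.11 ± 0.05 (adjusted p = 0.380) and 0.14 ± 0.05 (adjusted p = 0.182). Ift88 (0.06 ± 0.07 in SA, 0.07 ± 0.07 in SU) and Bbs1 (-0.07 ± 0.05 and -0.08 ± 0.04) had no unadjusted p under 0.05. The GC tilt moves with these comparisons, averaging 0.115 ± 0.166 (SD) over control, -0.0187 ± 0.113 over SA and -0.0236 ± 0.0908 over SU 5-Htt+/- animals. The number of libraries with high choroid plexus markers also differs, at 1 of 7, 3 of 8 and 6 of 9 in the same order, and the mean share of mitochondrial counts was 4.60%, 5.04% and 5.32%.

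Markers of other cell types also moved with these comparisons. The summed level of 5 oligodendrocyte markers was 1753 to 3085 CPM (median 2247) in control, 1536 to 2322 CPM (median 1869) in SA and 1557 to 1931 CPM (median 1802) in SU 5-Htt+/- libraries. Their median log2 difference was -0.28 in SA and -0.37 in SU, with 4 of 5 at an unadjusted p under 0.05 in each and none called. Mag, a myelin glycoprotein, was at -0.36 ± 0.11 (adjusted p = 0.268) in SA and -0.53 ± 0.11 (adjusted p = 0.0567) in SU. Of 5 astrocyte markers 2 had an unadjusted p under 0.05 with a negative difference in each. The part of these in the ciliary values was not tested.

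**Figure D2:**
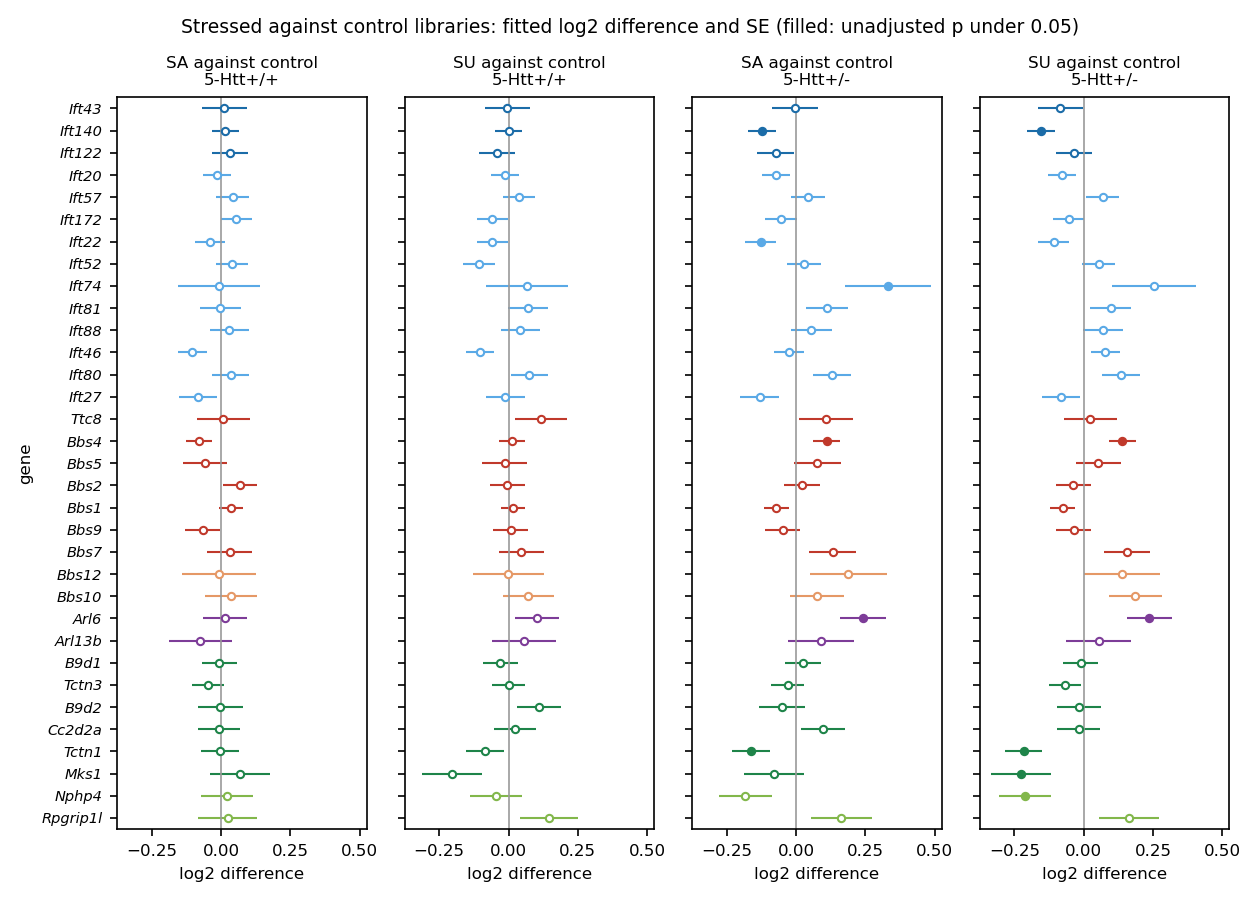
Fitted log2 difference (points) and standard error (lines) of 33 of the 35 genes in SA or SU against control libraries of the same labelled genotype, coloured by complex as in the plot of levels. Filled points have an unadjusted p under 0.05: there are 0 in both 5-Htt+/+ panels and 6 in each 5-Htt+/- panel, and none passed the adjustment over all genes.

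With the GC tilt as a term, an alternative chosen after seeing the data, the differences of SA from control 5-Htt+/- libraries ran from -0.14 to 0.09 in place of -0.18 to 0.33. Arl13b alone then had an unadjusted p under 0.05 (-0.14 ± 0.06, adjusted p = 0.821), and the number shared with the 6 above was 0. Ift74 went from 0.33 ± 0.15 to 0.04 ± 0.08 and Arl6 from 0.24 ± 0.08 to 0.09 ± 0.05. In SU against control 6 genes again had an unadjusted p under 0.05, of which 2 were shared with the 6 above: Tctn1 (-0.12 ± 0.06, adjusted p = 0.515) and Bbs4 (0.10 ± 0.05, adjusted p = 0.477). Without the 6 libraries of extreme tilt, 3 of them among the 7 controls, the count was 0 in SA and 6 in SU. Tctn1 was then at -0.15 ± 0.07 and Arl6 at 0.08 ± 0.08 in SU against control. Shares of all genes at an unadjusted p under 0.05 were not counted with the tilt as a term or without these libraries.

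Behaviour was compared directly between SA and SU. In 5-Htt+/+ libraries 0 of 35 genes were called by any of the 3 tests (0% of all genes by the quasi-likelihood test, 0.00320% in DESeq2) and 3 had an unadjusted p under 0.05 (3.90% of all genes), each higher in SA. Ift52, an IFT-B core subunit, was at 24.0 ± 2.52 CPM in SA and 21.6 ± 1.55 CPM in SU (log2 difference 0.15 ± 0.06, adjusted p = 0.999), Mks1 at 3.54 ± 0.559 and 2.91 ± 0.472 CPM (0.27 ± 0.11, adjusted p = 0.999) and Ift172, a peripheral IFT-B subunit, at 57.3 ± 2.49 and 53.0 ± 4.07 CPM (0.11 ± 0.06, adjusted p = 0.999). The ranges of the groups overlap for each. Libraries with high choroid plexus markers make up 5 of 8 in SA and 2 of 8 in SU. Without them, and so with fewer animals in each group, 1 gene had an unadjusted p under 0.05, and the share of all genes was not counted. Mks1 is the least abundant of the 35 per length, and its libraries held 33 to 127 reads. In 5-Htt+/- libraries 0 of 35 were called by any of the 3 tests (0% of all genes, but 0.00320% with likelihood ratios) and 1 had an unadjusted p under 0.05 (3.79%): Ift46, an IFT-B subunit, at 23.3 ± 1.12 CPM in SA and 25.0 ± 2.01 CPM in SU (-0.10 ± 0.05, adjusted p at its ceiling of 1).

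Whether these differences depend on the labelled genotype was tested as interactions. In the three-way interaction, the SA against SU difference in 5-Htt+/+ less that in 5-Htt+/- libraries, 0 of 35 genes were called by any of the 3 tests (0% of all genes) and 1 had an unadjusted p under 0.05 (3.70%), Ift52 (0.17 ± 0.08, adjusted p again at 1). In the interaction of stress, SA and SU pooled, with labelled genotype, 0 of 35 were again called by any of them (0%) and 2 had an unadjusted p under 0.05 (6.01%), Bbs4 (0.16 ± 0.06, adjusted p = 0.810) and Ift140 (-0.15 ± 0.06, adjusted p = 0.810). The tilt as a term left Bbs4 at 0.13 ± 0.05 and Ift140 at -0.09 ± 0.05. For none of the 35 genes was an effect of stress thus shown to differ between the genotypes.

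The libraries labelled 5-Htt+/- and 5-Htt+/+ were compared over all groups, with Slc6a4 itself higher in those labelled 5-Htt+/-. None of the 35 genes were called by any of the 3 tests (0.0224% of all genes by the quasi-likelihood test), and 1 had an unadjusted p under 0.05 (5.01%), Tctn1 (0.09 ± 0.04, adjusted p = 0.926). With the GC tilt as a term that count was 0, and without the 6 libraries of extreme tilt it was 2. The share of all genes at this p was not counted in either fit. Of the 35 genes, 3 are on chromosome 11 with Slc6a4, where sequence from the strain of the targeted cells can flank a deletion: Ift20 lies 1504021 bases from Slc6a4, Mks1 10820875 and B9d1 15485672 bases. Ift20 differed by 0.01 ± 0.03 between the labelled genotypes (adjusted p = 0.972), B9d1 by 0.01 ± 0.04 (adjusted p = 0.962) and Mks1 by 0.08 ± 0.06 (adjusted p = 0.926). Ift20, the nearest, was at 29.0 ± 1.10, 28.7 ± 1.63 and 28.7 ± 1.54 CPM in control, SA and SU 5-Htt+/+ libraries and at 30.0 ± 3.59, 28.5 ± 1.52 and 28.4 ± 1.69 CPM in control, SA and SU 5-Htt+/- libraries.

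The transport genes were then set against motile cilium genes, along a choroid plexus score, the mean log2 CPM of the 16 markers. The score separates the 20 libraries with high choroid plexus markers (mean 1.56) from the other 28 (mean -1.12), and slopes are log2 changes per unit of it beside the 6 group means. None of the 35 transport and transition zone genes were called by any of the 3 tests (1.01% of all genes by the quasi-likelihood test), and 2 had an unadjusted p under 0.05 (9.33%), Rpgrip1l (0.05 ± 0.02, adjusted p = 0.514) and Ift46 (-0.02 ± 0.01, adjusted p = 0.517), followed by Ift74 (0.06 ± 0.03, adjusted p = 0.550). Their median slope was 0.00388, beside -0.00274 for all genes. Of 57 motile cilium genes 16 were called, all positive, with a median slope of 0.0627. The lists differ in level and spread, and the difference between them was not tested.

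Dnah6, an axonemal dynein heavy chain, rose by 0.26 ± 0.03 per unit of the score (adjusted p = 1.46e-08). It was at 4.45 ± 0.962 CPM in the 20 libraries with high markers and at 2.85 ± 0.755 CPM in the other 28 (SD). Spag16 of the central pair rose by 0.17 ± 0.02 (adjusted p = 1.05e-07). Ift88, by contrast, was at 22.7 ± 1.31 CPM in the 20 libraries and 22.0 ± 2.50 CPM in the 28, with a slope of 0.02 ± 0.02 (adjusted p = 0.680), and Bbs1 at 42.5 ± 2.09 and 43.8 ± 2.56 CPM, with a slope of -0.01 ± 0.01 (adjusted p = 0.684). Within the 28 libraries of lower marker levels 0 of 35 genes were called on this score (0.00992% of all genes). Within the 20 of high levels it was also 0 of 35 (0.267% of all genes). With so few calls among all genes, these counts cannot set the 35 genes apart.

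**Figure D3:**
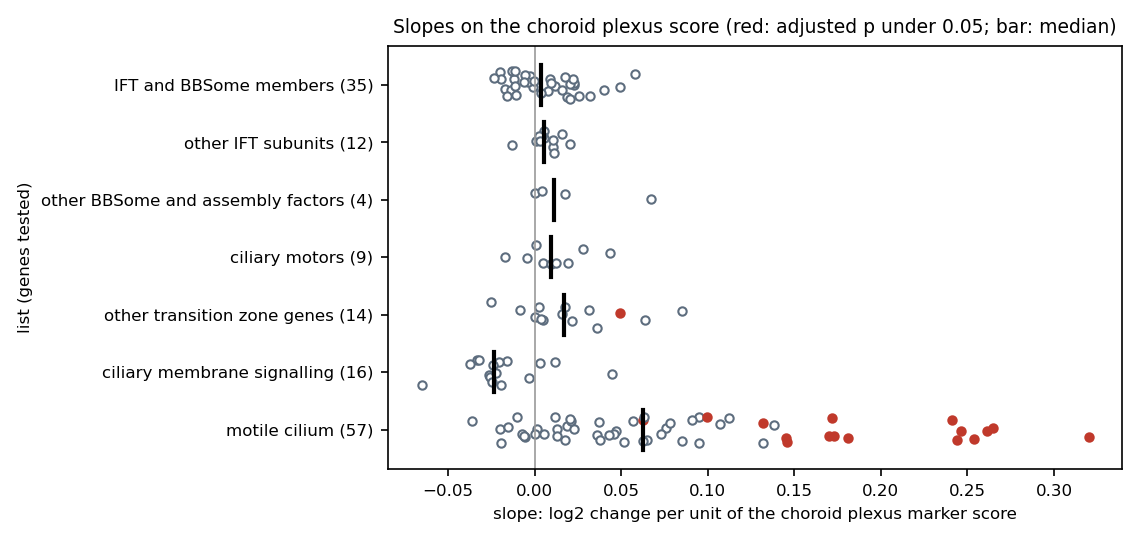
Slope on the choroid plexus score (log2 change per unit) of each gene in 7 ciliary lists, with the number of genes tested in brackets, red points for an adjusted p under 0.05 and black bars for medians. The 35 genes lie between -0.02 and 0.06 with none called, whereas motile cilium genes reach 0.32 with 16 called, and 1 other gene, Tmem237 of the transition zone, was called.

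On a motile cilium score, the mean log2 CPM of the 57 motile cilium genes, 0 of 35 genes were called by any of the 3 tests (1.59% of all genes by the quasi-likelihood test). An unadjusted p under 0.05 was found for 12 of 35 (18.1% of all genes), 11 positive (8.93%) and 1 negative (9.22%). The smallest adjusted p was that of Cc2d2a, a transition zone protein, with 0.41 ± 0.13 per unit (adjusted p = 0.0981), followed by Ift74 (0.75 ± 0.26, adjusted p = 0.125). Without control 5-Htt+/- replicate 4 Cc2d2a had a slope of 0.43 (adjusted p = 0.0442). The score spans 0.64 log2 units over the libraries, and its Pearson r with the choroid plexus score was 0.71 over 48 libraries that fall into separate clusters on the latter. With the tilt as a term 10 had an unadjusted p under 0.05, all positive, and the slope of Ift74 was 0.37 ± 0.13 in place of 0.75 ± 0.26. Without the 20 choroid plexus libraries, in a fit of the other 28, the number at an unadjusted p under 0.05 was 2 of 35. In neither of these fits was the share of all genes at this p counted, so the counts have no background to be read against.

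The 35 genes were then compared with the GC tilt. On it 25 of 35 genes were called (42.0% of all genes, and 64.6% of the 13505 genes whose mean level lay in the range of the 35). Of these, 10 were positive (23.8% of all genes, and 38.4% of those in that range) and 15 negative (18.2% and 26.1%). The slope, in log2 per unit of tilt, was most negative for Ift74 (-2.50 ± 0.20, adjusted p = 6.23e-15), Bbs12 (-2.05 ± 0.22), Arl13b (-1.91 ± 0.15) and Rpgrip1l (-1.72 ± 0.15), and most positive for Nphp4 (1.07 ± 0.20, adjusted p = 9.49e-06), Ift122 (0.83 ± 0.12), Ift22 (0.74 ± 0.10) and Tctn1 (0.69 ± 0.15). Ift88 (-0.92 ± 0.13) and Bbs1 (0.40 ± 0.10) were called in opposite directions. The tilt was chosen after seeing the data, and a quantity defined over GC content has to move genes by their GC content on average.

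Complexes did not move as units along the tilt. Of 11 IFT-B genes 4 were called positive and 5 negative, of 7 BBSome subunits 1 and 4, and of 4 NPHP module genes 1 and 2. Of the 3 IFT-A genes 2 were called, both positive, and both small GTPases were called negative. Across the 35 genes the slope followed the GC content of the longest annotated transcript (39.9% for Bbs5 to 59.3% for Nphp4), with Pearson r = 0.83 and Spearman rho = 0.82, beside 0.68 and 0.73 over the 19877 genes that define the tilt. The points are genes of the same libraries and not independent. Of 13 genes under 45% GC 12 were called, all negative, and of 13 genes at 51% or more 8 were called, all positive. In the same range of levels 69.9% of genes under 45% GC were called negative and 72.6% of genes at 51% or more positive.

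**Figure D4:**
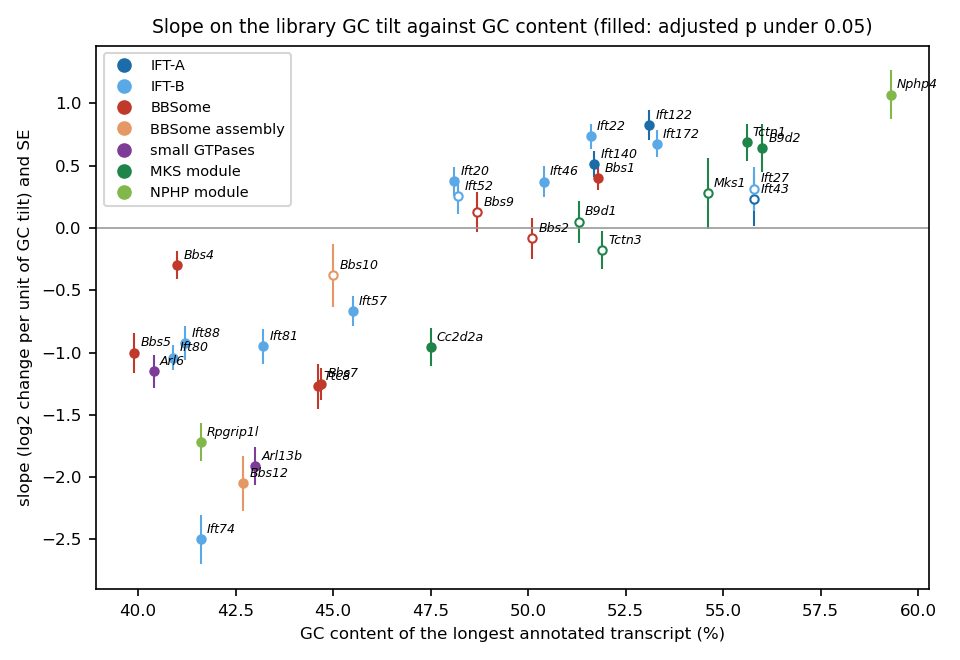
Slope on the GC tilt (log2 change per unit of tilt, with standard error) of 33 of the 35 genes against the GC content of its longest annotated transcript (%), coloured by complex, filled where the adjusted p is under 0.05. Genes under 45% GC lie below 0, down to -2.50 for Ift74, and the called genes above 51% lie above 0, up to 1.07 for Nphp4.

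Ift74, which with Ift81 forms a tubulin-binding pair, shows the size of this in single libraries. It was at 10.4 to 18.0 CPM (median 12.9) in the 6 libraries of extreme tilt and at 12.4 to 28.3 CPM (median 22.6) in the other 42. Arl13b was at 7.48 to 12.4 CPM in the 6 and 9.87 to 16.6 CPM in the 42. In the opposite direction Ift22, a small GTPase-like subunit of IFT-B, was at 30.0 to 36.5 CPM in the 6 and 25.6 to 34.3 CPM in the 42. The ranges overlap in each case, with medians apart. The share of mitochondrial counts was 3.43% to 5.36% in the 6 and 4.45% to 5.95% in the 42, with Pearson r = -0.79 between this share and the tilt over 48 libraries, and its part in the result was not tested.

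**Figure D5:**
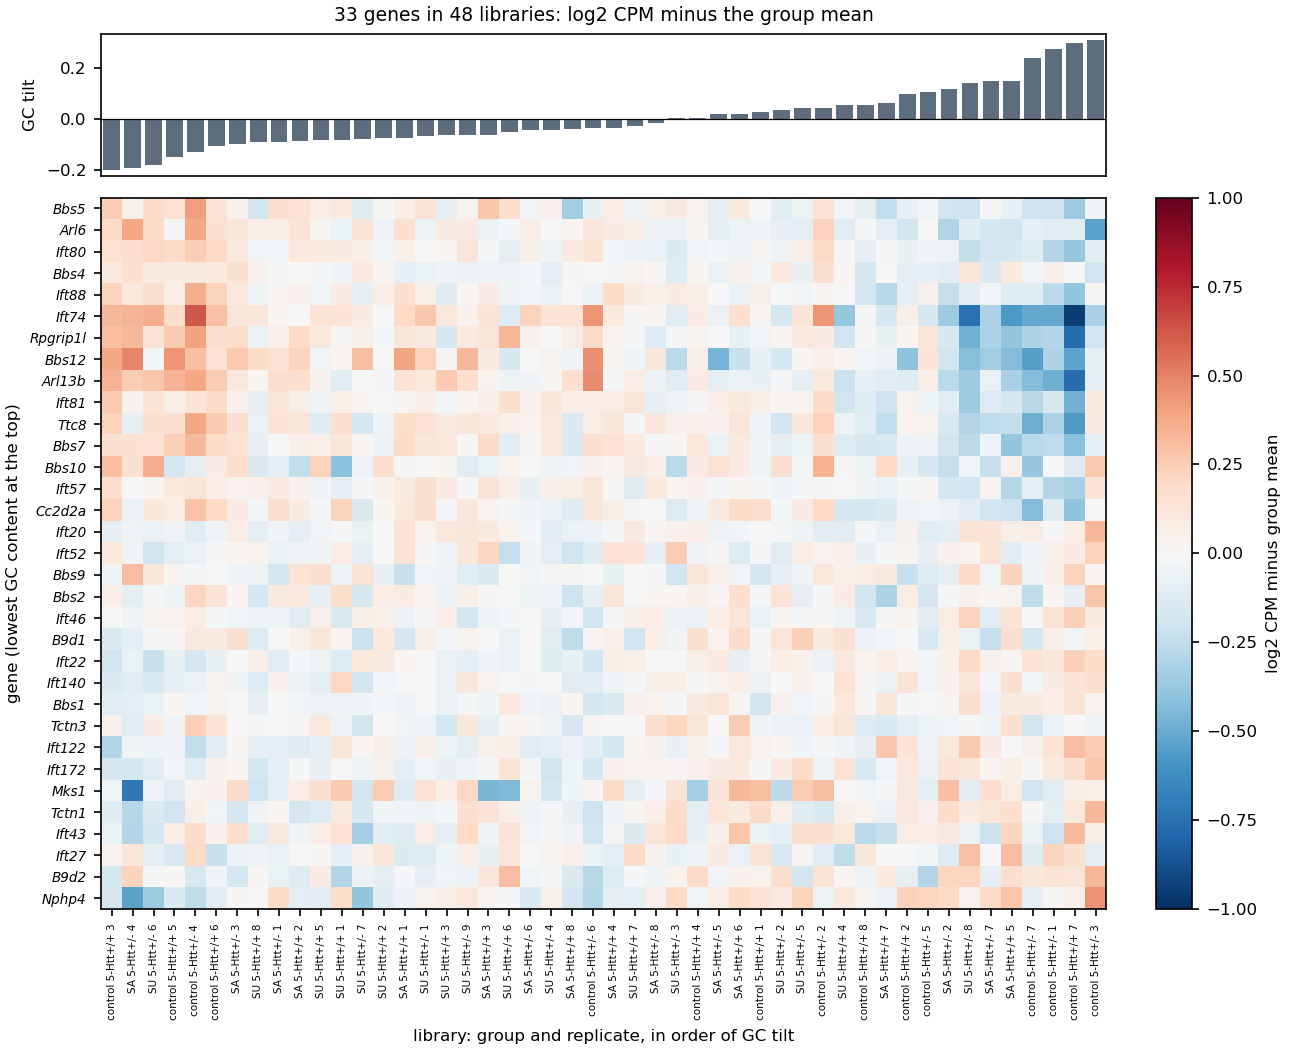
Here 33 of the 35 genes (rows, lowest GC content at the top) in the 48 libraries (columns, in order of GC tilt, which the bars show) are drawn, and colour gives log2 CPM minus the group mean, from blue (lower) to red (higher). The 6 columns at the right have tilts of 0.147 to 0.308, and most genes of the upper rows are blue there.

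Within groups the standard deviation of log2 CPM was as high as 0.328 (Ift74), with a median of 0.134 over the 35 genes, beside 0.298 over 57 motile cilium genes and 0.153 over genes in the same range of levels. With the tilt as a term it became 0.150 for Ift74, 0.111 for Arl13b (from 0.245), 0.112 for Rpgrip1l (from 0.229) and 0.0682 for Ift80 (from 0.137), while Mks1 went from 0.225 to 0.224 and Bbs10 from 0.180 to 0.178. Over 595 pairs of the 35 genes the correlation within groups across 48 libraries, which share depth and tilt, had a median r of 0.0721 and ran from -0.770 to 0.882. The highest were Bbs7 with Ift74 (0.88) and Cc2d2a with Ttc8 (0.88), which belong to different complexes. The lowest were Nphp4 with Arl6 (-0.77) and Ift22 with Arl13b (-0.77).

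Other genes of the ciliary pathway were counted in the same comparisons. Of 12 further IFT subunits, 4 further BBSome and assembly factors, 9 ciliary motors, 14 further transition zone genes and 16 ciliary membrane signalling genes, none were called in any of the 9 contrasts by edgeR's quasi-likelihood test. In SU against control 5-Htt+/- libraries, 4 of 12 IFT subunits and 2 of 4 BBSome factors had an unadjusted p under 0.05. So did 1 of 9 motors and 1 of 14 transition zone genes, and each of these was positive. Of 16 signalling genes 3 did, each negative. Counted in either direction, as these are, the share of all genes was 15.5%. Of the 4 IFT subunits, Ttc30a1, Ttc30a2 and Ttc30b are paralogues. How reads shared between them were counted is not stated, so they may not be separate results. In SA, with 12.1% of all genes, the counts were 0 of 12, 1 of 4 (positive), 0 of 9, 3 of 14 (1 positive) and 3 of 16 (negative). The GC tilt, which moves with these comparisons, was not a term in these counts. Of the genes at this p in SU, Bbip1 (-1.48 ± 0.10), Kifap3 (-0.38 ± 0.10) and Ahi1 (-0.29 ± 0.12) were called negative on the tilt. Mchr1 (1.28 ± 0.18), Adcy3 (0.89 ± 0.09) and Htr6 (1.30 ± 0.24) were called positive. Wdr35 and Mkks were negative and not called, and the part of the tilt was not tested. On the choroid plexus score 1 of these 55 genes was called, Tmem237 (0.05 ± 0.01, adjusted p = 0.0102), a membrane protein of the transition zone. Nek8, a kinase at the ciliary base, had a slope of 0.06 ± 0.03 (adjusted p = 0.504). The leading pair of each other list was not called. These were Ttc21b (0.02 ± 0.01) and Wdr35 (0.01 ± 0.01) of IFT-A, Lztfl1, which regulates the BBSome (0.07 ± 0.03), and its subunit Bbip1 (0.02 ± 0.02). Of the motors, Dync2h1, the heavy chain of the returning dynein, was at 0.04 ± 0.02 and Kif3a, a subunit of the outward kinesin, at 0.03 ± 0.02. Smo, the Hedgehog transducer, was at 0.04 ± 0.02 and Adcy3, the adenylyl cyclase of neuronal cilia, at -0.03 ± 0.01.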

How the data were processed

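Hippocampal RNA of 48 mice was sequenced. The values the authors deposited are raw read counts, 1 whole number for each gene and library. For alignment and quantification, the published methods give STAR, Salmon with tximport. HTSeq, DESeq2 and GRCm38.p5 appear in the submitters' processing notes. Strand, versions and how shared reads were treated are not stated there. Analyses used edgeR 4.0.16 and DESeq2 1.42.0 under R 4.3.3. A gene was kept if 3 or more libraries had 5 or more of its reads (31208 of 48440), and upper quartile factors set the scale. Group means were fitted by edgeR's quasi-likelihood method, with contrasts or a score slope tested and p adjusted (Benjamini-Hochberg) over all genes, and called at 0.05. Every adjusted p in the text is from this test unless another is named. RPKM is CPM per kilobase of the union of annotated exons, and exon lengths and GC content are from GENCODE M21. Scores are mean log2 CPM (prior count 2), centred. Genes named by rule are Ift88, Bbs1, any called, up to 3 per contrast of smallest unadjusted p under 0.05, 3 per score, the 3 highest and 3 lowest per length, those on chromosome 11, and of other lists the 2 of smallest p on the choroid plexus score. Other genes named for level, spread, shared reads or fits with the tilt were chosen after their values were seen. Values of 2 of the 35 genes are not reported here, though counts over the genes include them. The genes and lists were chosen with earlier results of these data known. The GC tilt, chosen after seeing the data, used 19877 genes of mean CPM of at least 1. Libraries are taken as animals, and p-values measure only the spread between them. No libraries of a group agreed within sampling noise (smallest chi-square per gene 2.69 over 169 pairs). Alternatives were other tests, scale factors, filters, covariates and library sets, a replicate block and leaving out each library. The fits were tested on simulated counts with known group changes, larger than the differences of the 35 genes, and known score slopes. The simulation held no GC tilt and no litters, so it cannot tell whether smaller changes were missed here.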

Additional observations from a re-analysis of the deposited data

Results flagged for a closer look

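Among the 108 sets of 1 gene in 1 group (18 named genes, 6 groups), 10 held a library far from the others of its group by Dixon's criterion, where chance gives about 1 in 20 sets, or 5.40. Control 5-Htt+/+ replicate 7, whose GC tilt was 0.299, accounts for 4 of them. In it Ift74 was at 10.4 CPM (the group's median is 21.2 and its highest library 25.2), Rpgrip1l at 17.7 CPM (29.6 to 37.3), Ift57 at 31.8 CPM (38.8 to 44.8) and Ift46 at 30.3 CPM (23.2 to 26.3). Control 5-Htt+/- replicate 3, with a tilt of 0.308, had Ift20 at 37.6 CPM (27.5 to 31.3). SU 5-Htt+/- replicate 8 had Rpgrip1l at 21.9 CPM (30.1 to 33.7) and Bbs1 at 47.9 CPM (40.8 to 44.1). SU 5-Htt+/+ replicate 1 had Cc2d2a at 38.1 CPM (29.2 to 32.9). SA 5-Htt+/- replicate 2 had Ift88 at 19.0 CPM (21.8 to 24.0), and SA 5-Htt+/- replicate 4 had Mks1 at 2.04 CPM (3.21 to 4.20). The causes were not tested.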

How the results depend on the processing

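In the 9 contrasts and both score slopes, 0 of 35 genes were called under each of the alternatives that kept all groups or left out a set of libraries. Leaving out each library in turn gave 0 to 1 in SU against control 5-Htt+/- libraries (Arl6, 0.30) and 0 to 1 on the motile cilium score (Cc2d2a, 0.43), each without control 5-Htt+/- replicate 4, and 0 in the other comparisons. With a replicate block 0 were called in each and 24 on the GC tilt (37.4% of all genes). Replicate numbers did not pair the libraries: r between same-numbered libraries of different groups ran from -0.37 to 0.55 (median -0.00, 115 pairs), and 6 of 48 libraries matched their own number best. Counts on the tilt were 23 with TMM (40.6% of all genes) or relative log expression factors (40.9%). They were 24 with no filter (26.4%), 25 with a stricter filter (51.7%) and 21 without the 6 libraries of extreme tilt (31.7%). Choroid plexus score slopes of Rpgrip1l (-0.04) and Ift46 (0.07) changed sign without the choroid plexus libraries, and that of Ift46 (0.00) in those libraries alone. In the same 20 libraries the motile score slopes of Ift74 (-0.13), Ift22 (0.05) and Rpgrip1l (-0.07) changed sign. Over all 35 genes, 15 kept the sign of the choroid plexus score slope without those libraries and 19 within them, and 23 that of the motile score slope within them. With the replicate block the number at an unadjusted p under 0.05 on the motile score went from 12 to 1 and the median slope from 0.186 to 0.0992. The cause was not tested. The number with an unadjusted p under 0.05 was 1 to 10 in SA and 4 to 12 in SU against control 5-Htt+/- libraries when each library was left out. For these alternatives the share of all genes at this p was not counted. Counts of 33 to 127 reads limit Mks1.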
